A study of Mus musculus with 8 samples.

Results

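The genes of the mitochondrial respiratory chain and the ATP synthase were followed in E14Tg2a, a line of mouse embryonic stem (ES) cells, after knockdown of Tet1, on 8 Affymetrix expression arrays. Members were taken by symbol: those starting Nduf, Uqcr, Cox4 to Cox8 or Atp5, and Sdha, Sdhb, Sdhc and Sdhd. This gave 80 of the 15267 named genes measured: 32 of complex I, 8 assembly factors of complex I (Ndufaf), 4 of complex II, 6 of complex III, 18 of complex IV and 12 of complex V. Ndufa4 and its paralogue Ndufa4l2 were placed with complex IV, where the Ndufa4 protein is found. Each member was read by 1 probe set. No member was left out by a filter, and Atpif1 was not analysed here.

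All cells were of the one line and were transfected with a small interfering RNA (siRNA) duplex. At 96 h there were 3 groups of 2 arrays: the control siRNA, which is directed at firefly luciferase, Tet1 siRNA #1 and Tet1 siRNA #2 (here siRNA 1 and siRNA 2). Another group of 2 arrays was taken 48 h after siRNA 1, and a control of that time was not analysed here. Tet1, a dioxygenase that oxidises methylated cytosine in DNA, was itself not analysed here, so the knockdown was not checked on these arrays. Nothing states that arrays of one group stem from independent cultures, so the p-values reflect array-to-array spread that may be technical.

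The respiratory chain sits in the inner mitochondrial membrane and passes electrons from NADH (complex I) and succinate (complex II) through complex III to oxygen at complex IV. The protons pumped on the way drive the ATP synthase, complex V. Most subunits are encoded in the nucleus, and their genes carry sites for factors such as NRF1, GABP, YY1 and the oestrogen-related receptors. Mouse ES cells respire and also rely strongly on glycolysis, and several complex IV subunits have tissue isoforms that replace the common form in muscle, lung or testis.

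All values are RMA log2 levels, so a difference of 1 is a doubling, and a level is compared only within one gene because probe sets differ in brightness. Array medians over all genes lay between 6.68 and 6.72, and arrays of a group correlated at Pearson's r of 0.997 to 0.998 across genes. The mean level of the 80 members lay between 11.1 and 11.3 on every array. Bacterial trp control probe sets, which show the level of an absent transcript, read 3.18 to 3.71. The ES cell markers were present on every array, with a mean level of 11.84 to 12.23 at 96 h and 12.50 to 12.53 at 48 h. Lung markers were also present on all 6 arrays of 96 h, controls included: their summed level (log2) was 12.67 to 13.46 there and 9.66 to 9.69 at 48 h. Scgb1a1, a secretoglobin of airway club cells, read 11.9 to 12.8 at 96 h and 3.71 and 4.03 at 48 h, at or near the level of an absent transcript.

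RefSeq promoter windows (GRCm38.p6, 250 bases before to 50 after the start site) were found for 65 of the 80 members, in 69 windows. Windows of members held a median of 19 CpG dinucleotides, the substrate of DNA methylation and Tet1, against 7 over all 32851 windows. Exact letters of 4 motifs were searched on both strands. Those of NRF1, in capitals in the Uqcrc1 window below, stood in 6 members (9.23%, against 1.07% of 27025 genes with a window) and the YY1 letters AAGATGGCG in 8 (12.3% against 1.64%). The oestrogen-related receptor letters TCAAGGTCA stood in 2 members (3.08% against 0.466%), and the GABP letters CCGGAAGT in 2 (3.08% against 4.31%). In 7 of the 8 members with the YY1 letters the match began after the start site. A match describes letters and is no evidence of binding.

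The windows of 6 members that the results below turn on are shown 5′ to 3′ along the gene, with motif matches in capitals. Ndufv3, Cox6b2 and Cox7a1 fell most after Tet1 knockdown at 96 h. Uqcrh and Atp5j2 were lower and Uqcrc1 higher at 48 h than in the control. They were shown for carrying the GABP, YY1 and NRF1 letters, in that order. In that comparison 42.5% of the 80 members were lower and 7.5% higher. Of 8 with the YY1 letters 3 were lower and 0 higher, and of 6 with the NRF1 letters 3 were lower and 1 higher. Of 2 with the GABP letters 1 was lower and 0 higher, and of 2 with the oestrogen-related receptor letters 0 were called.
Ndufv3, chr17:31519865-31520164, plus strand: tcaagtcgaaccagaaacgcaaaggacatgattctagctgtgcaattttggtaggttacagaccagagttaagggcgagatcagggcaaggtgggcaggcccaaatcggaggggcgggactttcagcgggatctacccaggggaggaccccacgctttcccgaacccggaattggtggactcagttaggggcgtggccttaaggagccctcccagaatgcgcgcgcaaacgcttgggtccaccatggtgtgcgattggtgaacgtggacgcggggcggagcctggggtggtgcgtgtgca
Cox6b2, chr7:4753045-4753344, minus strand: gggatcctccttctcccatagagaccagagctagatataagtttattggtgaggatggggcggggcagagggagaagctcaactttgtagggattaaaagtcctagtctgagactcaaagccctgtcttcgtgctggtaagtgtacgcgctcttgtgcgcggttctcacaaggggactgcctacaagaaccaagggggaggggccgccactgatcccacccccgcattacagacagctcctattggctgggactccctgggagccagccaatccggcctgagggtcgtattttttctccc
Cox7a1, chr7:30183921-30184220, plus strand: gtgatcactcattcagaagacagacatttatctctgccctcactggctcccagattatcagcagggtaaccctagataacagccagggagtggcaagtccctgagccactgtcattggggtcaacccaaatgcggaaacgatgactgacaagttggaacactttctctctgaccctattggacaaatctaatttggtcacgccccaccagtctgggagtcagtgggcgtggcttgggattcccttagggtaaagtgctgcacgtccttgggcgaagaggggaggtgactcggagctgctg
Uqcrh, chr4:116075021-116075320, minus strand: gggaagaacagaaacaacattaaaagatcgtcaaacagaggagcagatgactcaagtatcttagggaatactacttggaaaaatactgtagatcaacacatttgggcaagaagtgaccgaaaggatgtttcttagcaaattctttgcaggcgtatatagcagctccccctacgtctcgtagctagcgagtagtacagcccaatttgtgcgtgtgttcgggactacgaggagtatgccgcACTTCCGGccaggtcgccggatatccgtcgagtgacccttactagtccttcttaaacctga
Uqcrc1, chr9:108936398-108936697, plus strand: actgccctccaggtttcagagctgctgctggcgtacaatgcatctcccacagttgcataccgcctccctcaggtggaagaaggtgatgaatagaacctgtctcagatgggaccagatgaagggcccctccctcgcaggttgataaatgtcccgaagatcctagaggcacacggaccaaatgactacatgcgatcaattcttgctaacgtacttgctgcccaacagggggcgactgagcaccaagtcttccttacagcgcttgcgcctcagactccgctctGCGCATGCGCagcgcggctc
Atp5j2, chr5:145191492-145191791, minus strand: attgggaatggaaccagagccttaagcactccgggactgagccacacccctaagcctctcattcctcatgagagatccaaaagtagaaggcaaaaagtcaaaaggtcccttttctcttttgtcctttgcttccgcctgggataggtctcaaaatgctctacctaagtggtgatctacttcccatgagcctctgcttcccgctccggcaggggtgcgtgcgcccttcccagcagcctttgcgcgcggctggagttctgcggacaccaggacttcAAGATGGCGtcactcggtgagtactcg
The first 3 windows hold no match to any of the 4 motifs. They hold 20 CpG dinucleotides in Ndufv3, 10 in Cox6b2 and 7 in Cox7a1. The Uqcrh window holds 15 and carries the GABP letters on its reverse strand from 11 bases before the start site. That of Uqcrc1 holds 15 with the NRF1 letters from base 31 after it, and that of Atp5j2 holds 13 with the YY1 letters from base 24.

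**Figure D1:**
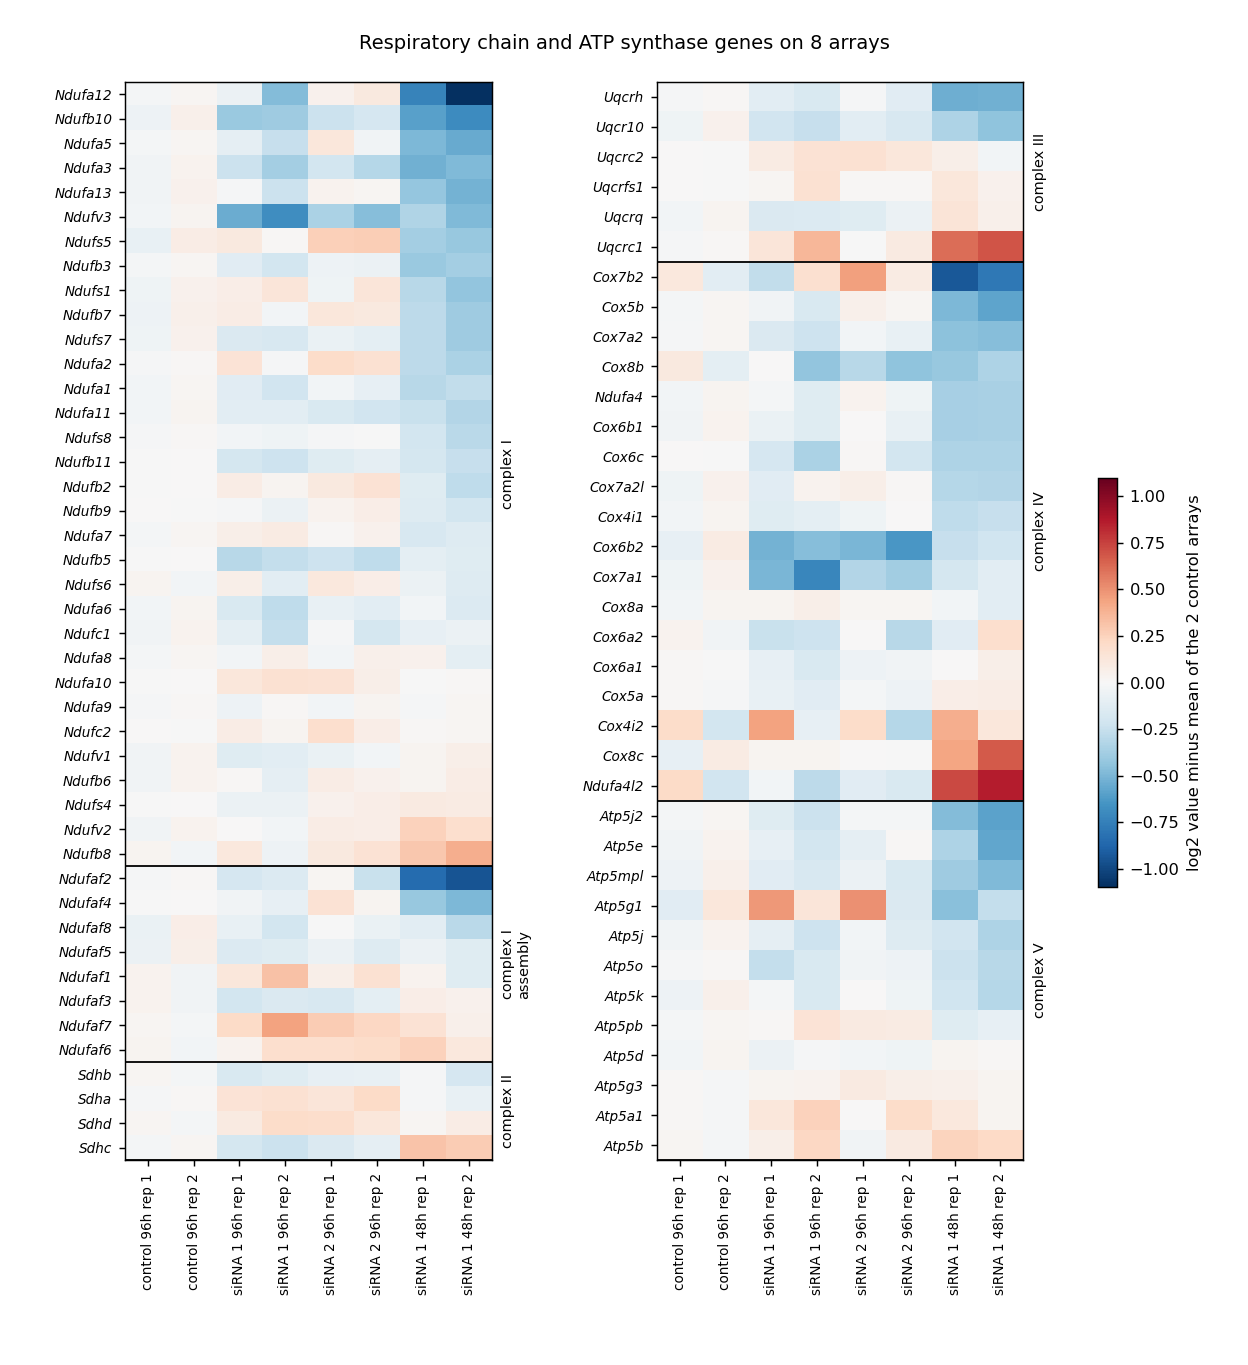
Level of each of the 80 members on each of the 8 arrays, as the log2 value minus the mean of the 2 control arrays (colour), with genes ordered within a complex by their difference at 48 h. Most rows are pale at 96 h, with Ndufv3, Cox6b2 and Cox7a1 darkest in the siRNA columns, and the 2 columns of 48 h are the most coloured.

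Whether loss of Tet1 moved respiratory chain genes was asked first at 96 h, with both siRNAs together against the control. Of the 80 members, 6 fell and 1 rose (limma, adjusted p below 0.05 over all genes). Those that fell were the complex IV isoforms Cox6b2 and Cox7a1 and the complex I accessory subunits Ndufv3, Ndufb10, Ndufa3 and Ndufb5. The assembly factor Ndufaf7 rose. Changes were 1.2-fold to 1.45-fold, and no member of complexes II, III or V passed. The share called was 8.75% of members against 24.2% of all genes, and the share that fell was 7.5% against 12.2%, the share that rose 1.25% against 12%. It was 17.3% of 75 members against 44.4% of 7634 genes when genes below the median level were left out. With the spread modelled with level (limma trend and robust options) it was 25% against 27.8%. Under that setting the share that fell was 17.5% against 13.8%, and the share that rose 7.5% against 14%. The median difference of the members was -0.05, against -0.02 for all genes. The 4 siRNA arrays lay below both controls in 23 of the 80 members and above both in 11. Over all 15267 genes this held for 3539 and 3221, so such a separation was common among all genes.

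Cox6b2, the testis isoform of a subunit that joins the monomers of complex IV, read 9.96 and 10.14 in the controls, 9.53 and 9.58 with siRNA 1, and 9.54 and 9.41 with siRNA 2. The 4 siRNA arrays lay below both controls, and the 48 h arrays, at 9.79 and 9.83, lay between them. The difference was -0.53 ± 0.077 (SE; 1.45-fold lower, limma adjusted p = 0.00191).
Cox7a1, the heart and muscle isoform of subunit 7a, read 7.92 and 8.01 in the controls, 7.47 and 7.25 with siRNA 1, and 7.65 and 7.58 with siRNA 2. Again all 4 siRNA arrays lay below both controls, and 48 h gave 7.77 and 7.85. The difference was -0.48 ± 0.080 (1.39-fold lower, limma adjusted p = 0.00374).
The common forms of these subunits did not pass. Cox6b1 differed by -0.07 ± 0.064 (limma adjusted p = 0.465) and Cox7a2 by -0.13 ± 0.062 (0.184).

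Ndufv3, an accessory subunit beside the NADH-binding site of complex I, read 11.97 and 12.02 in the controls, 11.45 and 11.31 with siRNA 1, and 11.65 and 11.53 with siRNA 2. At 48 h it read 11.66 and 11.51, so all 6 Tet1 siRNA arrays lay below both controls. The difference at 96 h was -0.51 ± 0.079 (1.42-fold lower, limma adjusted p = 0.00272). Its neighbours at that site, the NADH- and flavin-binding Ndufv1 and the iron-sulfur subunit Ndufv2, differed by -0.09 ± 0.061 and 0.03 ± 0.063 and did not pass (limma adjusted p = 0.344 and 0.744).

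Ndufb10, an accessory subunit of the membrane arm, read 11.71 and 11.82 in the controls, 11.36 and 11.38 with siRNA 1, and 11.53 and 11.57 with siRNA 2. Ndufb5, of the same arm, read 12.67 on both controls, 12.37 and 12.41 with siRNA 1, and 12.45 and 12.39 with siRNA 2. Ndufa3, a small accessory subunit, read 12.59 and 12.66 in the controls, 12.39 and 12.26 with siRNA 1, and 12.43 and 12.31 with siRNA 2. In all 3 genes the siRNA arrays lay below both controls. The differences were -0.30 ± 0.067 for Ndufb10, -0.27 ± 0.060 for Ndufb5 and -0.28 ± 0.072 for Ndufa3, with limma adjusted p of 0.013, 0.0141 and 0.0251.

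Ndufaf7, a methyltransferase needed for complex I assembly, read 8.73 and 8.69 in the controls, 8.92 and 9.15 with siRNA 1, and 8.99 and 8.94 with siRNA 2. All 4 siRNA arrays lay above both controls, by 0.29 ± 0.081 (1.22-fold higher, limma adjusted p = 0.0332). The other 7 assembly factors did not pass.
The calls of Cox6b2, Cox7a1 and Ndufv3 held under every alternative setting tried, with limma adjusted p up to 0.0203, 0.0347 and 0.0252. The other 4 rested on single arrays. Ndufb10 was no longer called without control replicate 2 (adjusted p = 0.107), nor Ndufb5 without control replicate 1 or 2 (0.0753 and 0.0805). Ndufa3 lost its call without control replicate 1 or 2, siRNA 1 replicate 2 or siRNA 2 replicate 2 (0.064 to 0.152). Ndufaf7 lost its call without either control, either siRNA 2 array or siRNA 1 replicate 2 (0.0577 to 0.155).
Lung markers differed less between these groups than between 96 h and 48 h with siRNA 1, where their median difference was 1.31. Here 3 of 18 measured fell and none rose (16.7% called, against 24.2% of all genes). Their median difference was -0.07 and the lowest was -1.34. With the mean lung marker level of each array as a covariate, Cox6b2, Cox7a1, Ndufv3, Ndufb10 and Ndufb5 were still called (limma adjusted p = 0.00845, 0.0149, 0.00984, 0.0313 and 0.0409), Ndufa3 and Ndufaf7 were not, and the dim Atp5g1 was called higher (0.46, adjusted p = 0.0271). Of 17 heart and skeletal muscle markers 1 was higher and none lower, and of 14 testis and germ cell markers 4 were higher and 2 lower. Of 12 ES cell markers 6 were lower and 2 higher (66.7% called, against 24.2% of all genes; median -0.18), and of 18 fibroblast and feeder cell markers 5 were higher and 1 lower. The part of these cell type markers in the members' differences was not tested.

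**Figure D2:**
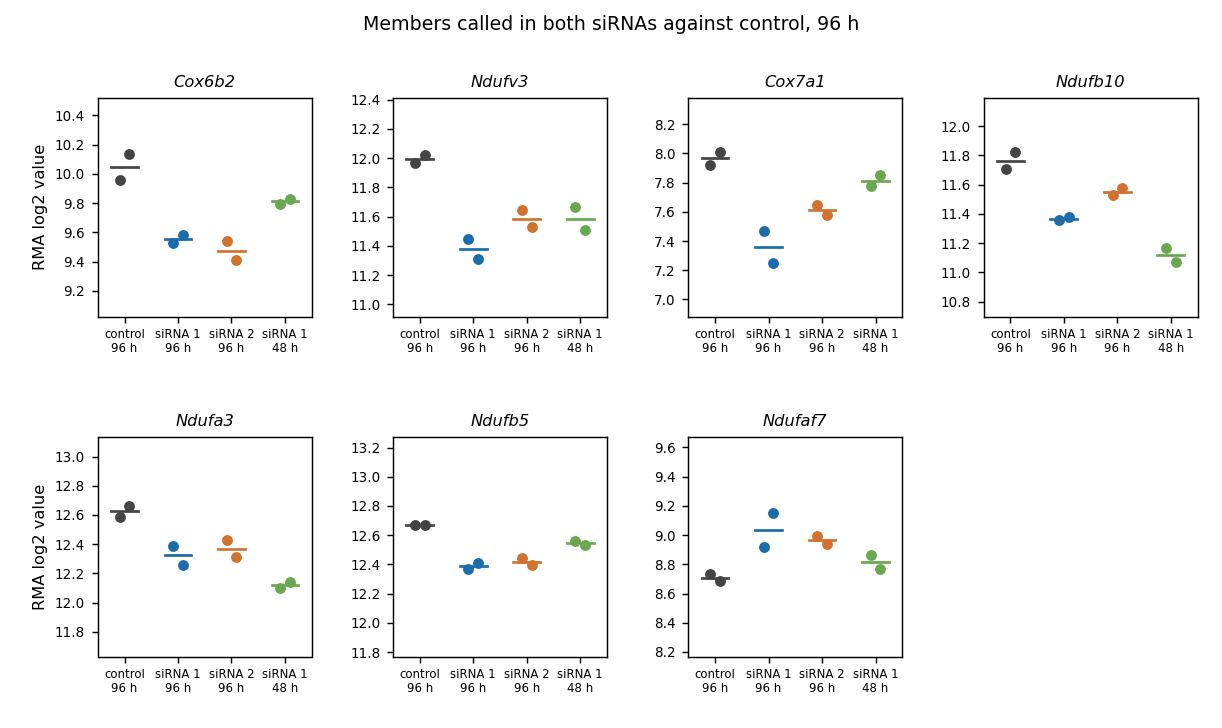
RMA log2 level of the 7 members called in both siRNAs against control at 96 h, 1 point per array and a bar at each group mean, with every panel spanning the same number of log2 units. In each panel the 4 siRNA arrays of 96 h lie on one side of both controls, below them in 6 genes and above them in Ndufaf7. The genes were selected by their calls on these same arrays.

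Of the 73 members that did not pass, 51 had a 95% interval of the difference that lay within 0.3 log2 units of 0 in either direction, or 1.23-fold. The widest intervals reached -0.58 for Cox8b and 0.66 for Atp5g1, both read at low levels. Among core subunits, Ndufs1, the largest iron-sulfur subunit of complex I, read 11.13 and 11.23 in the controls, 11.25 and 11.31 with siRNA 1, and 11.14 and 11.32 with siRNA 2, and the groups overlapped. Ndufv1 read 11.54 and 11.61, then 11.44 and 11.46, then 11.50 and 11.55 in the same order, and also overlapped.

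Complex II had 3 of its 4 genes at an unadjusted p below 0.05, where 36.2% of all genes were, and none after adjustment. Sdha, the flavoprotein that oxidises succinate, read 11.21 and 11.23 in the controls, 11.37 and 11.39 with siRNA 1, and 11.36 and 11.43 with siRNA 2 (difference 0.17 ± 0.063, limma adjusted p = 0.0925). Sdhd, a membrane anchor, read 11.37 and 11.33, then 11.45 and 11.55, then 11.54 and 11.47 (0.15 ± 0.066, adjusted p = 0.134). In both genes the siRNA arrays were above the controls.
Sdhb, the iron-sulfur subunit, read 11.81 and 11.76 in the controls, 11.62 and 11.65 with siRNA 1, and 11.70 on both arrays of siRNA 2 (-0.12 ± 0.070, limma adjusted p = 0.263). Sdhc, the other anchor, read 9.88 and 9.92, then 9.71 and 9.67, then 9.74 and 9.80 (-0.17 ± 0.061, adjusted p = 0.081). In these 2 genes the siRNA arrays were below the controls.

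In complex III, the core protein Uqcrc1 read 12.11 and 12.13 in the controls, 12.25 and 12.48 with siRNA 1, and 12.11 and 12.21 with siRNA 2. Uqcrc2, the other core protein, read 11.95 and 11.93, then 12.03 and 12.10, then 12.10 and 12.06. Uqcrfs1, the Rieske iron-sulfur protein, read 11.42 and 11.41, then 11.43 and 11.58, then 11.42 on both arrays. Their differences of 0.15 ± 0.081, 0.14 ± 0.064 and 0.05 ± 0.068 did not pass (limma adjusted p = 0.24, 0.163 and 0.635), and the smallest adjusted p of the complex was 0.0737.
In complex V, Atp5a1 and Atp5b encode the alpha and beta subunits that form the catalytic head. Atp5a1 read 12.79 and 12.76 in the controls, 12.90 and 13.03 with siRNA 1, and 12.79 and 12.98 with siRNA 2. Atp5b read 13.83 and 13.78, then 13.87 and 14.03, then 13.77 and 13.90. In both genes the arrays overlapped, with differences of 0.15 ± 0.079 and 0.09 ± 0.074 (limma adjusted p = 0.22 and 0.422). The smallest adjusted p of the 12 genes of complex V was 0.181.

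None of the other complex IV forms passed at 96 h. Cox4i1, the common form of subunit 4, read 13.76 and 13.82 in the controls and 13.66 to 13.79 on the siRNA arrays, and Cox5a, which sits beside it, read 13.75 and 13.72 against 13.61 to 13.72. Cox6a1 read 14.26 and 14.24 against 14.08 to 14.21, and Cox8a 12.18 and 12.24 against 12.23 to 12.27. Over both siRNAs together, the mean of these common forms differed from control by at most 0.09 log2 units.
Cox4i2, the lung isoform of subunit 4, read 5.12 and 4.73 in the controls and 4.61 to 5.36 on the siRNA arrays. The muscle isoforms Cox6a2 and Cox8b read 7.40 and 7.31 against 7.05 to 7.36, and 6.11 and 5.90 against 5.56 to 6.01. The testis isoform Cox8c read 7.95 and 8.12 against 8.04 to 8.07.
All 4 ranges overlapped the controls.

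Each siRNA was also set against the same control arrays. With siRNA 1, 6 members fell and 1 rose (8.75%, against 22.8% of all genes), where 11.2% of all genes fell and 11.6% rose. With siRNA 2, 4 fell and none rose (5%, against 15.7%), where 7.66% of all genes fell and 8.01% rose. With siRNA 2, 11 members (13.8%) had an unadjusted p below 0.05, against 29.6% of all genes. With the spread modelled with level, 20% of members fell and 3.75% rose with siRNA 1, against 12.9% and 13.6% of all genes. With siRNA 2 these shares were 8.75% and 3.75%, against 9.47% and 10.1%. Ndufv3 fell by 0.61 with siRNA 1 and by 0.41 with siRNA 2 (SE 0.091 each, limma adjusted p = 0.00235 and 0.0214). Cox6b2 fell by 0.49 and by 0.57 (SE 0.089 each, adjusted p = 0.00577 and 0.0047). Cox7a1 fell by 0.61 and by 0.35 (SE 0.092 each, adjusted p = 0.00258 and 0.0373), and Ndufb5 by 0.28 and by 0.25 (SE 0.069 each, adjusted p = 0.0214 and 0.0448).
Ndufb10 fell by 0.40 ± 0.077 with siRNA 1 (limma adjusted p = 0.00828). Ndufa3 fell by 0.30 ± 0.083 and Ndufaf7 rose by 0.33 ± 0.093 with siRNA 1 (adjusted p = 0.0335 and 0.0385). With siRNA 2 these 3 did not pass.
Both comparisons rest on the same 2 control arrays. Without control replicate 2, 3 members fell with siRNA 1 and 1 with siRNA 2. With siRNA 1 the rise of Ndufaf7 was lost without either control, siRNA 1 replicate 2 or either array of siRNA 2 or of 48 h (0 rose), while without siRNA 1 replicate 1 there were 2 that rose. With siRNA 2 only Cox6b2 was called under every setting tried. There the count fell to 1 also without control replicate 1 or siRNA 2 replicate 2, and to 2 without siRNA 2 replicate 1 or either 48 h array.

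The difference between the siRNAs was tested directly, and none of the 80 members differed (0%, against 0.0197% of all genes, which is 3 genes). At an unadjusted limma p below 0.05 there were 4 members (5%), against 10.6% of all genes. Differences of siRNA 1 minus siRNA 2 ran from -0.34 to 0.23 with a median of -0.07, and 62 of the 80 were below 0 (77.5%), against a median of -0.001 and 50.4% below 0 over all genes. Other lists were skewed alike: 69.6% of 46 oxidative phosphorylation genes outside the 80 were below 0. So were 72.7% of 22 cytosolic ribosomal protein genes, a list chosen after values were seen. Lists of the citric acid cycle (43.5%) and of carriers (33.3%) were not. For 54 of the 80 the 95% interval lay within 0.3 log2 units of 0 in either direction, and for the others the interval leaves room for a larger difference.

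**Figure D3:**
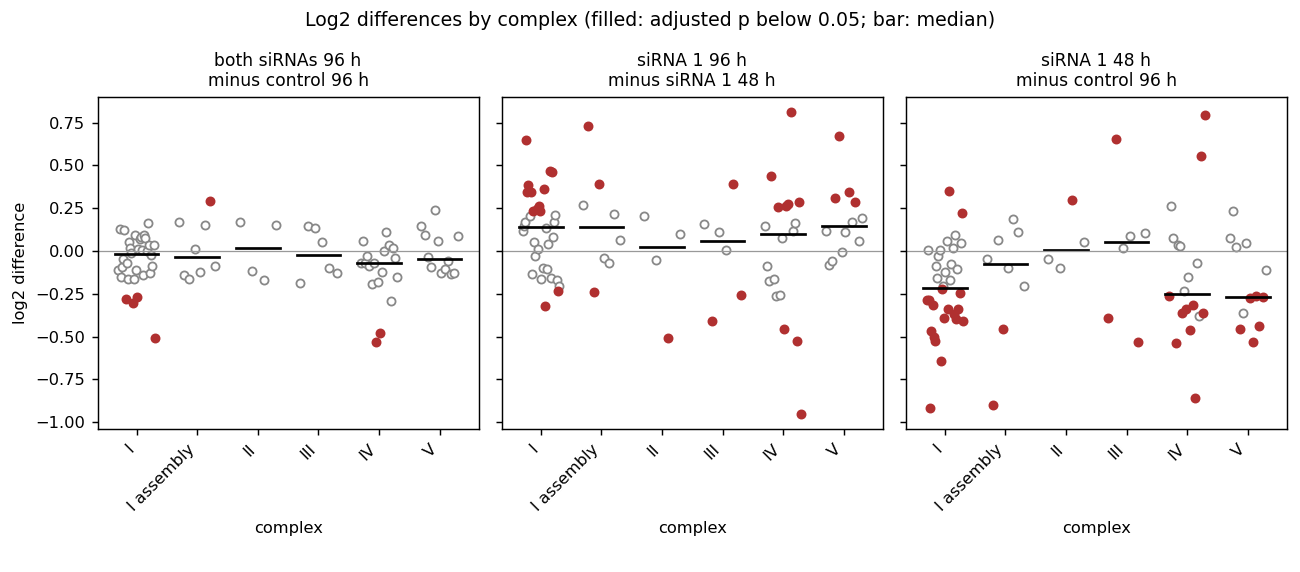
Log2 difference of each member by complex in 3 comparisons, with filled points for an adjusted p below 0.05, open points otherwise, and a bar at the median of each complex. At 96 h the points crowd around 0, while both comparisons with the 48 h arrays spread to about 0.9 in either direction.

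The arrays of 48 h differed far more. Within siRNA 1, 24 members were higher at 96 h than at 48 h and 9 lower, which is 41.2% of members against 37.6% of all genes. The higher ones were 30% of members against 19.2% of all genes, and the lower ones 11.2% against 18.5%. Among genes above the median level these shares were 38.7% of 75 members against 35.9%, so the members' share lay near that of other genes of that level. With the spread modelled with level, 35 were higher and 16 lower, 63.8% of members against 39.8% of all genes. The split depended on scaling: 24 higher and 9 lower (72.7% higher) became 14 and 13 (51.9%) after a further quantile normalization and 27 and 7 (79.4%) after median centring. Without 48 h replicate 2 the counts were 8 and 4, without 48 h replicate 1 there were 15 higher, and without siRNA 1 96 h replicate 1 there were 11 and 5. Without siRNA 1 96 h replicate 2 there were 5 lower.

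Set against the control at 96 h, siRNA 1 at 48 h had 34 members lower and 6 higher, 50% of members against 35.4% of all genes. The lower ones were 42.5% of members against 18.4% of all genes, and 49.3% against 34.6% among genes above the median level. The higher ones were 7.5% against 17.1%. Without regard to direction, 57.3% of the 75 members above the median level were called, against 59.1% of the genes there. The median difference of the members was -0.16, against 0.003 for all genes. Both 48 h arrays lay below all 6 arrays of 96 h in 35 of the 80 members, where 20.5% of all genes did so. They lay above all 6 in 10 members, where 21.3% of all genes did so. Without 48 h replicate 2 the number lower was 17, and without control replicate 2 it was 18. Time and siRNA differ together in this comparison and it shares the 48 h arrays with the one above, so the 2 are given side by side and are not independent.
In both, lung transcripts moved with the groups: of 18 lung markers measured, 12 were higher at 96 h than 48 h and none lower, with a median difference of 1.31, and 14 were lower at 48 h than in the control. Lung signal and time cannot be told apart on these arrays. Fewer cells of a type and less RNA per cell cannot be told apart either in such bulk samples. Cox4i2, the complex IV isoform known from lung, read 5.32 and 5.05 at 48 h and 4.61 to 5.36 on the 6 arrays of 96 h, and did not pass in either comparison. Its level was low and its SE was 0.23 in both. The part of lung cells in the members' levels was not tested.

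In complex I, 11 members were higher and 2 lower at 96 h than at 48 h (40.6% called, against 37.6% of all genes). At 48 h, 16 were lower and 2 higher than in the control (56.2% called, against 35.4%). Ndufa12, an accessory subunit of the NADH-oxidising module, read 10.39 and 10.03 at 48 h against 11.07 and 10.66 at 96 h with siRNA 1 and 11.11 and 11.15 in the controls. All 6 arrays of 96 h lay above both arrays of 48 h. The 96 h minus 48 h difference was 0.65 ± 0.15 (limma adjusted p = 0.0112), and the 48 h minus control difference was -0.92 ± 0.15 (adjusted p = 0.00269, 1.89-fold lower). Ndufaf2, the assembly factor that is its paralogue and occupies its place before it joins, followed the same order with 9.86 and 9.76 at 48 h, 10.53 and 10.56 with siRNA 1 at 96 h, and 10.70 and 10.72 in the controls. Its differences were 0.73 ± 0.097 and -0.90 ± 0.097 (adjusted p = 0.000829 and 0.000436).
The other assembly factor that was lower at 48 h than both 96 h groups was Ndufaf4, at 9.76 and 9.68 against 10.14 and 10.08 and against 10.17 and 10.18. Its 96 h minus 48 h difference was 0.39 ± 0.078 and its 48 h minus control difference -0.45 ± 0.078 (limma adjusted p = 0.00563 and 0.00315). Ndufaf3 went the other way, at 9.52 and 9.49 at 48 h against 9.24 and 9.29 at 96 h with siRNA 1 (-0.24 ± 0.073, adjusted p = 0.032).

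Ndufs1 read 10.88 and 10.75 at 48 h, below all arrays of 96 h, and was 0.47 ± 0.090 higher at 96 h with siRNA 1 (limma adjusted p = 0.00475). Ndufs5, an accessory subunit, read 10.46 and 10.41 at 48 h against 10.94 and 10.85 at 96 h, a difference of 0.46 ± 0.083 (adjusted p = 0.00349). Ndufb10 read 11.17 and 11.07 and Ndufa5, another accessory subunit, 10.77 and 10.71 at 48 h, lower than control by 0.64 ± 0.077 and 0.52 ± 0.089 (adjusted p = 0.00066 and 0.00299). Not all of complex I went this way. Ndufb8, in the membrane arm, read 11.89 and 11.99 at 48 h, above every 96 h array (11.54 to 11.75), and Ndufv2 read 12.45 and 12.37 above a range of 12.15 to 12.28.
Ndufb8 was higher at 48 h than control by 0.35 ± 0.085 and Ndufv2 by 0.22 ± 0.073 (limma adjusted p = 0.0139 and 0.047). Ndufa9, a subunit near the ubiquinone site, had the smallest range of all members over the 8 arrays, 0.0867 log2 units.

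Complex II and complex III were mixed. Sdhc read 10.21 and 10.18 at 48 h, above all 6 arrays of 96 h (9.67 to 9.92). It was 0.51 ± 0.071 lower at 96 h with siRNA 1 and 0.30 ± 0.071 higher at 48 h than control (limma adjusted p = 0.00104 and 0.0133), while Sdha, Sdhb and Sdhd did not pass in either comparison. Uqcrc1 read 12.73 and 12.81 at 48 h, above all arrays of 96 h (12.11 to 12.48), with a 48 h minus control difference of 0.66 ± 0.094 (1.57-fold, adjusted p = 0.00142). Uqcrh, the hinge protein of the same complex, went the other way, with 12.64 and 12.65 at 48 h below a range of 13.02 to 13.19, and a difference of -0.53 ± 0.074 (1.44-fold lower, adjusted p = 0.00124). Uqcr10, a small subunit, was also lower at 48 h than control (-0.39 ± 0.077, adjusted p = 0.00549), and Uqcrq, which helps bind ubiquinone, was lower at 96 h than at 48 h (-0.26 ± 0.074, adjusted p = 0.0265).
The other core protein, Uqcrc2, read 12.00 and 11.91 at 48 h against 11.93 to 12.10 at 96 h, and did not pass.

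**Figure D4:**
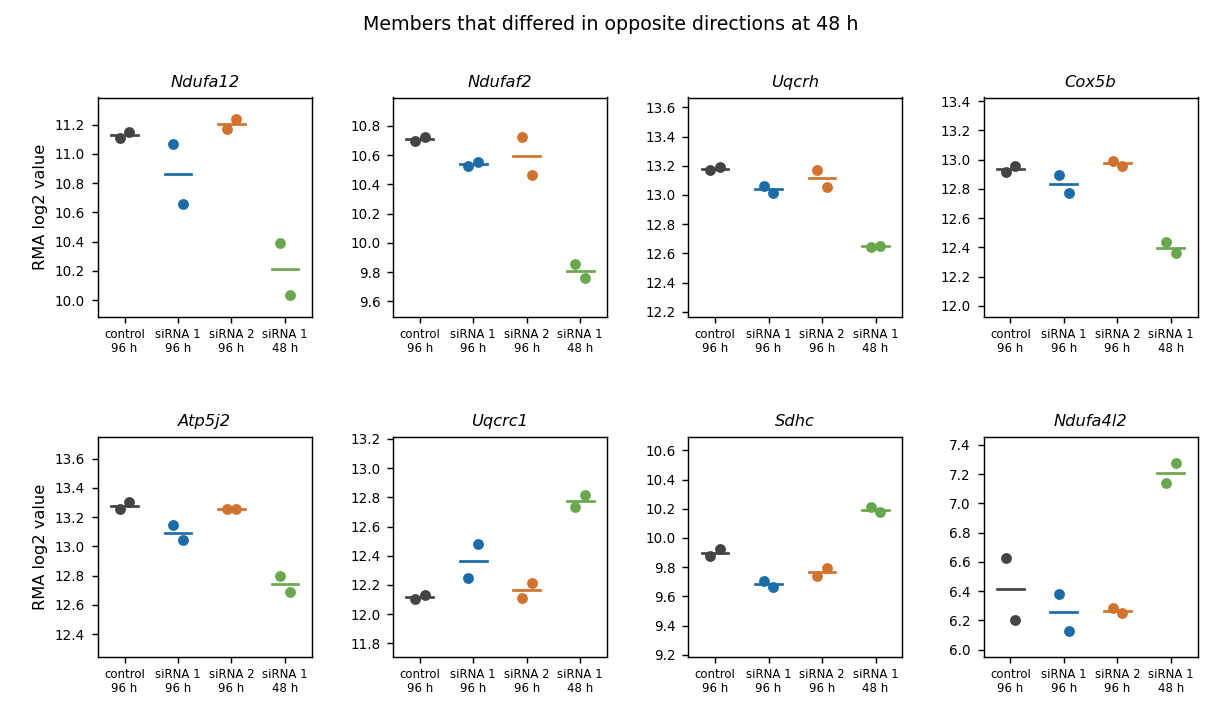
RMA log2 level of 8 members that differed at 48 h, 1 point per array and a bar at each group mean. In Ndufa12, Ndufaf2, Uqcrh, Cox5b and Atp5j2 both 48 h arrays lie below all 6 arrays of 96 h, and in Uqcrc1, Sdhc and Ndufa4l2 above them. The genes were picked from members called on these same arrays.

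In complex IV, 6 members were higher and 3 lower at 96 h than at 48 h (50% called, against 37.6% of all genes). At 48 h, 8 were lower and 2 higher than in the control (55.6% called, against 35.4%). Cox5b, a zinc-binding nuclear subunit, read 12.44 and 12.36 at 48 h against 12.77 to 12.99 on the 96 h arrays. It was 0.54 ± 0.078 lower than the control (1.45-fold, limma adjusted p = 0.00145). Among the common forms, Cox7a2 read 13.00 and 12.98 at 48 h (-0.46 ± 0.071 against control, adjusted p = 0.002), Cox6b1 13.22 and 13.23 (-0.36 ± 0.074, 0.00705) and Cox4i1 13.52 and 13.54 (-0.26 ± 0.070, 0.0205). Ndufa4 read 12.72 and 12.73 (-0.36 ± 0.077, 0.0081), and Cox7a2l, a supercomplex assembly factor, 10.26 and 10.25 (-0.32 ± 0.082, 0.0186). Cox5a, Cox6a1 and Cox8a, by contrast, read 13.81 and 13.82, 14.25 and 14.31, and 12.18 and 12.10, and did not pass.

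The isoforms moved in both directions at 48 h. Ndufa4l2, a paralogue of Ndufa4 known as a hypoxia-induced gene, read 7.14 and 7.27 at 48 h against 6.13 to 6.63 on the 96 h arrays. It was 0.95 ± 0.14 lower at 96 h with siRNA 1 (1.93-fold, limma adjusted p = 0.00153) and 0.79 ± 0.14 higher at 48 h than control (adjusted p = 0.00404). Cox8c read 8.47 and 8.71 at 48 h, above its whole 96 h range, and was 0.56 ± 0.10 higher than control (adjusted p = 0.00382). Cox7b2, a paralogue of Cox7b, read 4.72 and 4.87 at 48 h against 5.38 to 6.10, and was 0.86 ± 0.17 lower than control (adjusted p = 0.00616). Cox7b2 had the largest range of any member, 1.38 log2 units, at a low level.
Cox7a1 was 0.45 ± 0.092 lower at 96 h than at 48 h with siRNA 1 (limma adjusted p = 0.00596). At 48 h neither Cox7a1 nor Cox6b2 passed against the control. Cox6a2 (7.23 and 7.54) and Cox8b (5.59 and 5.66) did not pass in either comparison.

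In complex V, 4 members were higher and none lower at 96 h than at 48 h (33.3% called, against 37.6% of all genes). At 48 h, 6 were lower and none higher than in the control (50% called, against 35.4%). Atp5j2, the f subunit of the membrane part, read 12.80 and 12.69 at 48 h against 13.04 to 13.30 at 96 h, a difference of -0.53 ± 0.077 from the control (1.45-fold lower, limma adjusted p = 0.00147). Atp5e, the epsilon subunit of the central stalk, read 11.90 and 11.68 (-0.46 ± 0.098, adjusted p = 0.00835), and Atp5mpl, a small membrane subunit, 11.97 and 11.88 (-0.44 ± 0.081, 0.00441). Atp5j, Atp5k and Atp5o, of the stalks and membrane part, were lower by 0.26 to 0.27 (0.0405, 0.0437 and 0.0215). The catalytic pair did not pass: Atp5a1 read 12.89 and 12.81 and Atp5b 14.05 and 14.02 at 48 h.
The c subunit of the rotor ring is encoded by several genes. Atp5g3 read 14.04 to 14.15 on all 8 arrays, while the dim Atp5g1 read 4.17 and 4.37 at 48 h and 4.47 to 5.14 at 96 h (0.67 ± 0.21 higher at 96 h with siRNA 1, limma adjusted p = 0.0374).

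Many of these calls rested on single arrays, among them most of the named ones for 96 h against 48 h. The genes given here are examples. At 48 h against control, Sdhc was lost without control replicate 1 (limma adjusted p = 0.0693) or 48 h replicate 1 (0.0601), and Ndufb8 without control replicate 2 (0.0687) or 48 h replicate 2 (0.0875). Atp5e was lost without 48 h replicate 2 (0.0583), and Cox4i1, Cox7a2l and Ndufv2 without each of several arrays (up to 0.107, 0.101 and 0.202). For 96 h against 48 h, Ndufa12 was lost without 48 h replicate 2 (0.0836) or siRNA 1 96 h replicate 1 (0.0632). Uqcrc1 was lost without the same arrays (0.0686 and 0.0632), Cox7b2 without 48 h replicate 1 (0.0509), and Uqcrq and Ndufaf3 without any one array of the 2 groups (up to 0.121 and 0.128). Atp5g1 was lost without 48 h replicate 1 or 2 or siRNA 1 96 h replicate 1 (0.171, 0.0927 and 0.189). Ndufaf2, Ndufaf4, Uqcrh, Cox5b, Ndufa4l2 and Cox8c kept their calls in both comparisons with any array left out.

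Other mitochondrial genes were counted from 5 lists chosen by function. In both siRNAs against control at 96 h, assembly factors and other genes of oxidative phosphorylation outside the 80 gave 3 higher and 4 lower of 46 measured (15.2% called, against 24.2% of all genes). Among these, Cox20, which helps insert a core complex IV subunit, fell by 0.60 ± 0.075 (limma adjusted p = 0.000915), and Sdhaf1, an assembly factor of complex II, by 0.47 ± 0.066 (0.00168). The citric acid cycle and pyruvate dehydrogenase list gave 2 higher and 3 lower of 23 (21.7%). Dlst, a subunit of the 2-oxoglutarate dehydrogenase, rose by 0.45 ± 0.078 (0.00423), and Pdk4, which inhibits pyruvate dehydrogenase, fell by 0.73 ± 0.14 (0.00618).
Regulators of mitochondrial biogenesis gave 4 higher and 2 lower of 24 (25%). Esrrb, an oestrogen-related receptor that is also an ES cell factor, fell by 1.11 ± 0.068 (limma adjusted p = 3.91e-05), Polrmt, the mitochondrial RNA polymerase, by 0.36 ± 0.061 (0.00423), and Polg, the mitochondrial DNA polymerase, rose by 0.41 ± 0.068 (0.00394). Carriers gave 3 higher and 2 lower of 15 (33.3%), with Slc25a31, the germ cell form of the ADP/ATP carrier, 1.03 ± 0.11 higher (0.000521). Antioxidant genes gave 1 higher and 2 lower of 9 (33.3%), with Sod2, the mitochondrial superoxide dismutase, 0.76 ± 0.067 lower (0.000168).

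At 48 h against the control, the other genes of oxidative phosphorylation gave 4 higher and 18 lower of 46 (median -0.19), while the citric acid cycle and pyruvate dehydrogenase list gave 9 higher and none lower of 23 (median 0.14). These are 47.8% and 39.1% called, against 35.4% of all genes, of which 17.1% were higher and 18.4% lower with a median of 0.003. Among genes above the median level 24.5% were higher and 34.6% lower. A list outside mitochondria, the 22 cytosolic ribosomal protein genes measured, chosen after values were seen, gave 1 higher and 11 lower with a median of -0.21. Pdk1 and Pdk3, kinases that inhibit pyruvate dehydrogenase, were 0.65 ± 0.071 and 0.65 ± 0.081 higher (limma adjusted p = 0.000443 and 0.000777), and Idh2, the mitochondrial NADP-dependent isocitrate dehydrogenase, 0.64 ± 0.081 higher (0.000833). Among the other genes of oxidative phosphorylation, Timmdc1 and Tmem70 were 0.64 ± 0.072 and 0.69 ± 0.095 higher (limma adjusted p = 0.000524 and 0.00114). Cox20 was again lower (-0.74 ± 0.086, 0.000589). The carriers gave 1 higher and 3 lower of 15 (26.7% called). Slc25a31 was 1.74 ± 0.13 higher (0.000131), while Slc25a4 (-0.55 ± 0.07, 0.000818) and Tspo (-0.33 ± 0.087, 0.0187) were lower. The regulators gave 3 higher and 4 lower of 24 (29.2% called). The coactivator Ppargc1b was 0.90 ± 0.12 higher (0.00105), while Gabpb2 (-0.42 ± 0.07, 0.00277) and Polrmt (-0.39 ± 0.07, 0.00388) were lower. The antioxidant genes gave 1 higher and 2 lower of 9 (33.3% called). Cat was 0.43 ± 0.1 higher (limma adjusted p = 0.0138), while Glrx2 (-1.11 ± 0.081, 0.000114) and Prdx3 (-0.26 ± 0.076, 0.028) were lower. As for the members, time and lung signal cannot be told apart from the siRNA here.

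**Figure D5:**
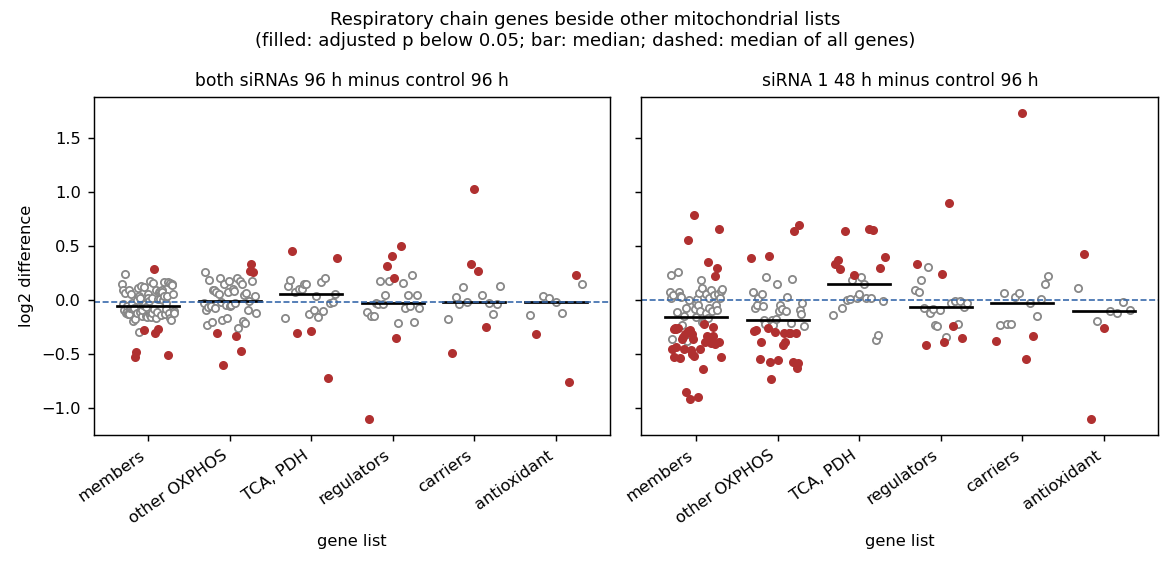
Log2 difference of the 80 members and of 5 other mitochondrial gene lists in both siRNAs against control at 96 h (left) and in siRNA 1 at 48 h against control at 96 h (right), with filled points for an adjusted p below 0.05, a bar at each list median and a dashed line at the median of all genes. On the right the members and the other genes of oxidative phosphorylation lie mostly below the line, with medians of -0.16 and -0.19, and the citric acid cycle list above it, at 0.14, while cytosolic ribosomal protein genes, which are not plotted, had a median of -0.21.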

How the data were processed

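Total RNA was labelled with biotin and hybridised to 8 Affymetrix arrays, per the labels' protocols. The authors deposited RMA log2 values, 1 per probe set and array. Per the submitters' processing notes the tool was RMA, with no version given. Values between 2.6 and 15.3 showed the log2 scale. Scanner signals were not used here. The platform annotation named 15270 of 16556 probe sets by 1 symbol and left 1222 unnamed, besides 64 controls. Where a symbol had several probe sets the brightest was kept, which left 15267 genes.

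All 8 arrays entered one group-means model in limma 3.58.1 in R 4.3.3 (4 residual and 4.13 prior degrees of freedom, trend and robust options off). Differences are given ± SE, with two-sided p-values adjusted by Benjamini-Hochberg over 15267 genes in each of 6 comparisons. The 4 comparisons with the control at 96 h share its arrays. The model was tested on simulated data. The number of arrays limits the precision.

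Members, complexes and gene lists were chosen with earlier results of these data known. Values are given for selected core subunits, tissue isoforms and, per comparison and complex, up to 3 called members with the largest rise and 3 with the largest fall. The core subunits selected for complex I were Ndufs1 and Ndufv1. Ndufs7 and Ndufs8, called lower at 48 h than control, were not among those selected. Genes of the other lists are named for both siRNAs at 96 h and for 48 h against control. They were drawn from the up to 3 called per list with the smallest adjusted p, and not all of these are named. Ndufa9, Atp5g3 and the group of Atp5j, Atp5k and Atp5o, named outside this rule, were picked after their values were seen. Alternatives were a modelled spread, only the arrays compared, a replicate block, other scaling, a filter on dim genes, a lung covariate and each array left out. Fits without the 48 h arrays were added after the data were seen. Promoters came from RefSeq.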

Additional observations from a re-analysis of the deposited data

How the results depend on the processing

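Of the counts of called members under the alternatives, 130 stayed within 1.5 times the reported count and 52 did not, and no called difference of a named member changed sign. The 130 include counts of 0 that stayed 0, among them every count for siRNA 1 against siRNA 2. They therefore overstate how stable the other counts were. With the spread modelled with level, both siRNAs gave 6 higher and 14 lower, siRNA 1 gave 3 and 16, siRNA 2 gave 3 and 7, and 96 h against 48 h gave 16 lower. With dim genes left out these were 2 and 11, 2 and 14, 2 and 7, and 15 lower; fewer genes were tested there (7634). With only the arrays compared, siRNA 1 gave 0 higher and siRNA 2 gave 2 lower, as did fits without the 48 h arrays, chosen after seeing the data. A lung covariate left 1 lower with siRNA 2, and a further quantile normalization left 14 higher at 96 h than 48 h. Except where the construction shows it, the cause was not tested.

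Replicate numbers gave little sign of pairing: correlations of same-numbered deviations ran from -0.056 to 0.14. The highest was that between siRNA 1 and siRNA 2 at 96 h, and a batch shared by their arrays was not tested. With a replicate block, both siRNAs and siRNA 1 gave 0 higher, and siRNA 2 gave 2 lower.

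With 1 array left out, both siRNAs gave 0 to 1 higher and 3 to 7 lower, siRNA 1 gave 0 to 2 and 3 to 6, siRNA 2 gave 0 higher and 1 to 3 lower, and the siRNAs differed in 0. For 96 h against 48 h it was 8 to 24 higher and 4 to 10 lower, and for 48 h against control 4 to 5 higher and 17 to 34 lower. Where this left 1 array in a group, that array is assumed to vary like the other groups. Dim genes (Cox4i2, Cox7b2, Cox8b, Atp5g1) have the widest intervals.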
